A study of Macaca mulatta with 8 samples.

Results

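The genes described here encode subunits of the respiratory chain and of the ATP synthase that are written in the nuclear genome. They were chosen by symbol: NDUFA, NDUFB, NDUFC, NDUFS or NDUFV followed by a number (complex I), SDHA to SDHD (complex II), the UQCR genes (complex III), the COX4 to COX8 genes (complex IV) and the ATP5 genes (complex V). Of the 21748 genes in the count matrix, 67 gene IDs with 66 symbols matched, since ATP5MC1 stands on 2 IDs. The rule uses gene names and no expression value, though earlier results of these data were known when the group was proposed.

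Complexes I and II pass electrons from NADH and succinate to ubiquinone, complex III passes them on to cytochrome c, and complex IV hands them to oxygen. Complexes I, III and IV pump protons across the inner mitochondrial membrane, and complex V, the ATP synthase, uses the return of those protons to make ATP. Brain tissue draws most of its ATP from this chain, and much of that ATP restores the ion gradients that synaptic and action potentials run down. The mitochondrial genome encodes the remaining core subunits of complexes I, III, IV and V, which were not analysed here. The RNA counted was that of isolated nuclei, with any free RNA caught beside them, so these levels need not match those of the cytoplasm.

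Single nuclei from frozen brain of male rhesus macaques were profiled in 8 samples with droplet-based sequencing of transcript 3' ends, which counts RNA molecules by unique molecular identifiers (UMIs). The sevoflurane samples (4) came from a pool made of 1 animal that inhaled the anaesthetic gas at 2.5 to 3% for 4 h at about postnatal day 7, with 2 more sessions labelled 14 and 28 days, and the control samples (4) came from a pool of 2 unexposed animals. The labels name the hippocampus in the sample characteristics and the amygdala in the growth protocol. The matrix divides into 8 libraries by barcode suffix, numbered here 1 to 8, and no source used here ties a library to a sample, so sevoflurane was not compared with control. All comparisons are between classes of nuclei from both pools together. Because no nucleus can be assigned to a sample, the matrix was treated as 1 sample and no p-values are given; the libraries serve to show how far a level varies and whether a direction recurs. They are aliquots of 2 pools, not independent animals.

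Totals per library ran from 35806547 to 47007082 UMIs, and the median UMI count per nucleus ran from 3189 to 5831. Of 59318 barcode sequences, 429 occurred in more than 1 library, with 8 to 32 shared by each pair of libraries. After filtering and removal of doublets 54644 nuclei remained, of which 46242 fell in clusters that could be named by their markers. Class names here mean "like" that type by those markers. The excitatory class (16722 nuclei), the inhibitory class (7039) and immature neurons (2091) made up the neurons. The non-neuronal nuclei comprised 5853 oligodendrocytes, 4484 astrocytes, 3627 oligodendrocyte precursors, 2949 microglia or macrophages, 1376 newly formed oligodendrocytes, 1180 ependymal cells, 459 endothelial cells, 293 fibroblasts and 169 mural cells. Nuclei with markers of dentate granule neurons, a hippocampal type, numbered 2187 and were spread unevenly, with 6 to 782 per library. Astrocytes were likewise uneven, with 953 to 1283 in each of libraries 1 to 4 and 1 to 5 in each of libraries 5 to 8. An unnamed cluster of 3231 nuclei that scored highest for astrocytes had the reverse split, with 7 to 13 nuclei in each of libraries 1 to 4 and 751 to 861 in each of libraries 5 to 8.

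Together the 67 genes held 1350 UMIs per 1000000 (CPM) over all nuclei. Complex I, with 29 genes, contributed 714 CPM, complex V (14 genes) 201 CPM, complex III (5 genes) 193 CPM, complex IV (15 genes) 122 CPM and complex II (4 genes) 120 CPM. These values count 3' ends and are not divided by transcript length. They say how often each gene was caught, which depends on the gene's own 3' end, so levels are compared between classes and not between genes. Of the 67 IDs, 54 reached 10 CPM in at least 1 class and 5 had no UMI in any nucleus kept: COX8C, COX6A2, COX6B2, NDUFS7 and the second ATP5MC1 ID. NDUFS7 encodes a core subunit of complex I, so its count of 0 may not describe its transcript and was not interpreted. A further 6 subunits lie outside the rule because their IDs carry no symbol or another gene's symbol. Over all nuclei they stood at 135 CPM for UQCRH, 104 CPM for ATP5ME, 57.4 CPM for NDUFA9, 34.0 CPM for ATP5PB, 13.4 CPM for NDUFB1 and 1.48 CPM for COX6A1.

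The summed level of the members differed little between classes in relative terms. It was lowest in excitatory neurons, at 1202 CPM (exact 95% Poisson interval 1197 to 1208), and highest in microglia or macrophages, at 1993 CPM (1953 to 2033), a 1.66-fold range over 12 classes. Astrocytes stood at 1953 CPM (the unnamed astrocyte-scoring cluster, outside the 12, at 1379), immature neurons at 1899, ependymal cells at 1743, mural cells at 1585 (1441 to 1739), oligodendrocyte precursors at 1565, fibroblasts at 1546, oligodendrocytes at 1526, endothelial cells at 1466, inhibitory neurons at 1456 and newly formed oligodendrocytes at 1345. Among the pooled values the interval of mural cells spans those of precursors, fibroblasts and oligodendrocytes. These intervals cover counting error only, and the pooled order mixes libraries that differ in level and in class makeup. Within libraries 5, 6 and 8 fibroblasts held 1395, 1221 and 1493 CPM, against 1230, 1057 and 1030 CPM in oligodendrocytes. Among classes with 50 nuclei in a library, microglia or macrophages had the highest sum in libraries 1, 2, 3 and 5, astrocytes in library 4, ependymal cells in libraries 6 and 7, and fibroblasts in library 8.

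Counted per nucleus, the order was a different one, and the class with the lowest CPM had the most member UMIs. Excitatory neurons held 11.1 member UMIs per nucleus and inhibitory neurons 8.77, while ependymal cells held 5.79, astrocytes 5.10, immature neurons 3.73, microglia or macrophages 3.31 and mural cells 2.64. That is a 4.18-fold range. Excitatory nuclei were also the deepest of the 12 classes by median, at 8574 UMIs, while mural nuclei had a median of 1464 and microglia or macrophages 1585. Over the 12 classes the rank correlation of member CPM with mean UMIs per nucleus was -0.80, with the summed CPM of cytosolic ribosomal protein genes 0.71, and with the CPM of TTR, a choroid plexus transcript used here as a tracer of free RNA, 0.59. These points share libraries and the same total, and the coefficients describe them without a test.

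**Figure D1:**
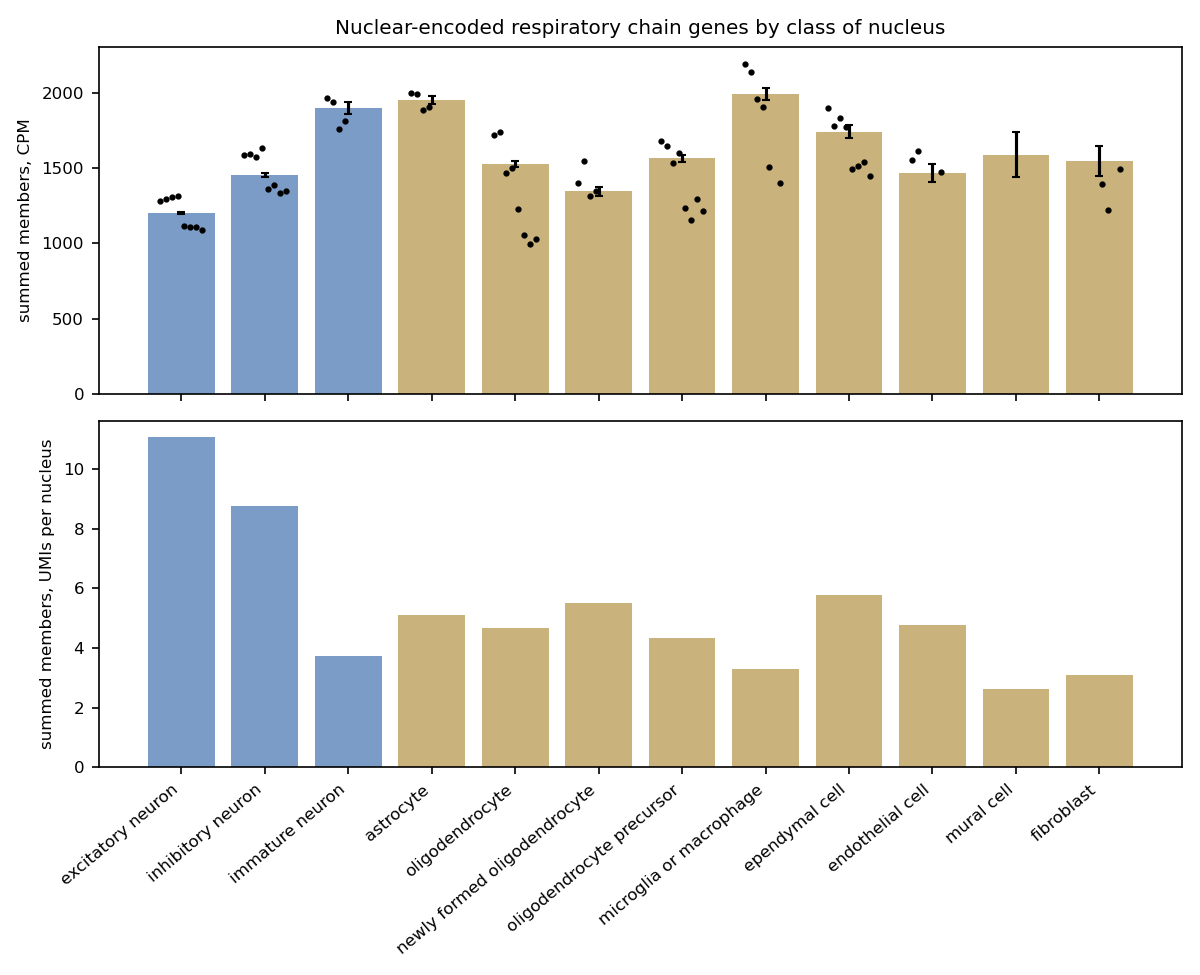
Summed level of the 67 genes in 12 classes of nuclei, as CPM (top) and as UMIs per nucleus (bottom). Bars are pooled values (neurons in blue, non-neuronal classes in tan), error bars are exact 95% Poisson intervals of the pooled CPM, and points are single libraries with at least 50 nuclei of that class. CPM runs from 1202 in excitatory neurons to 1993 in microglia or macrophages, while UMIs per nucleus run from 2.64 in mural cells to 11.1 in excitatory neurons.

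Libraries differed within a class by more than counting error. Excitatory neurons ran from 1088 to 1312 CPM (median 1201), inhibitory neurons from 1337 to 1632 CPM (median 1480), and oligodendrocytes from 996 to 1741 CPM (median 1350). In every library excitatory neurons lay below inhibitory neurons. Excitatory neurons were not the lowest class everywhere: in libraries 6, 7 and 8 oligodendrocytes held 1057, 996 and 1030 CPM, against 1109, 1112 and 1088 CPM in excitatory neurons. Astrocytes and immature neurons could be measured in 4 libraries, with 1887 to 2002 CPM in astrocytes and 1760 to 1969 CPM in immature neurons. The pooled level of a class found mainly in some libraries therefore rests on those libraries.

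For each member the highest class was set against the median class, with no like value over all genes. For the 54 genes at 10 CPM or more in some class, the highest class stood at a median of 1.61 times the median class. Of these, 10 genes reached 2-fold and 2 reached 3-fold. Without a value over all genes, these counts and those by highest class below do not say whether members were more even than other genes. The largest ratio, 75.9, was that of COX4I2. It reached 10 CPM in mural cells alone, on 5 UMIs, so that class both admitted the gene and set its ratio. The measure does not show classes far below the median. COX8A, for example, had 6.63 CPM in excitatory neurons and 29.9 CPM in immature neurons. The smallest ratio was that of NDUFS1, the core subunit of complex I that carries iron-sulfur clusters near the NADH site, at 1.11 times. It still had 41.8 CPM in immature neurons and 69.3 CPM in inhibitory neurons. In pooled levels microglia or macrophages and immature neurons were each the highest class for 13 genes, and no gene was highest in excitatory neurons or in oligodendrocyte precursors. Within libraries 1 to 4, over classes with 50 nuclei, microglia or macrophages were highest for 16, 17, 22 and 12 of the 54 genes, immature neurons for 10, 7, 12 and 13, and excitatory neurons for 0 in each. Immature neurons could not be ranked in libraries 5 to 8, where excitatory neurons were highest for 0 to 2 genes and precursors for 3 to 12. Mural cells were highest for 7 genes and fibroblasts for 5, on few nuclei and wide counting error.

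Within complex I the single gene with the most UMIs was NDUFS4, at 85.1 CPM over all nuclei. It encodes an accessory subunit needed for assembly of the NADH-oxidising arm. Its highest class was endothelial cells, at 131 CPM, and its lowest was excitatory neurons, at 77.8 CPM. NDUFA10 was caught at 66.0 CPM and NDUFB9, with the fewest UMIs of those that reached the threshold, at 6.14 CPM. NDUFA4, named for complex I but since assigned to complex IV, varied more than NDUFS4. Pooled, it stood at 112 CPM in microglia or macrophages, 103 CPM in immature neurons and 94.6 CPM in astrocytes, against 24.0 CPM in excitatory neurons and 30.1 CPM in inhibitory neurons. This pooled contrast mixes libraries: excitatory neurons had 33.7 to 39.1 CPM of NDUFA4 in libraries 1 to 4 and 10.8 to 12.8 CPM in libraries 5 to 8, while immature neurons and astrocytes came almost wholly from libraries 1 to 4. Within those 4 libraries microglia or macrophages had 94.3 to 158 CPM, immature neurons 68.5 to 116 CPM and astrocytes 78.7 to 105 CPM, all above excitatory and inhibitory neurons of the same library. In libraries 5 and 7, the others with 50 microglia or macrophages, these had 15.4 and 26.7 CPM, against 11.3 and 11.3 CPM in excitatory neurons.

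In complex II, SDHB, the iron-sulfur subunit, had 49.9 CPM over all nuclei and SDHA, the flavoprotein that binds succinate, 35.8 CPM. SDHA was highest in newly formed oligodendrocytes at 73.9 CPM. SDHC, a membrane anchor subunit, stood at 187 CPM in ependymal cells and between 19.4 and 46.1 CPM in the other 11 classes. SDHD, its partner in the membrane, was caught at 5.44 CPM over all nuclei. The other 3 subunits of the same complex had no such ependymal level, with 50.8 CPM for SDHB, 32.4 CPM for SDHA and 6.38 CPM for SDHD in ependymal cells.

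UQCRC2, a core subunit of complex III, was the member caught most often, at 101 CPM, and varied little, from 80.4 CPM in endothelial cells to 132 CPM in astrocytes. UQCRC1, the other core subunit, had 36.7 CPM and UQCRB, which lies at the ubiquinone site, 9.51 CPM. In complex IV, COX5A and COX6C were caught most often, at 18.4 and 17.3 CPM. In complex V, ATP5F1A, the alpha subunit of the catalytic head, had 29.3 CPM and ATP5MG, a subunit of the membrane part, 23.9 CPM. ATP5MC3, 1 of the genes for the proton-carrying ring subunit, had the fewest UMIs among those that reached the threshold, at 6.87 CPM.

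**Figure D2:**
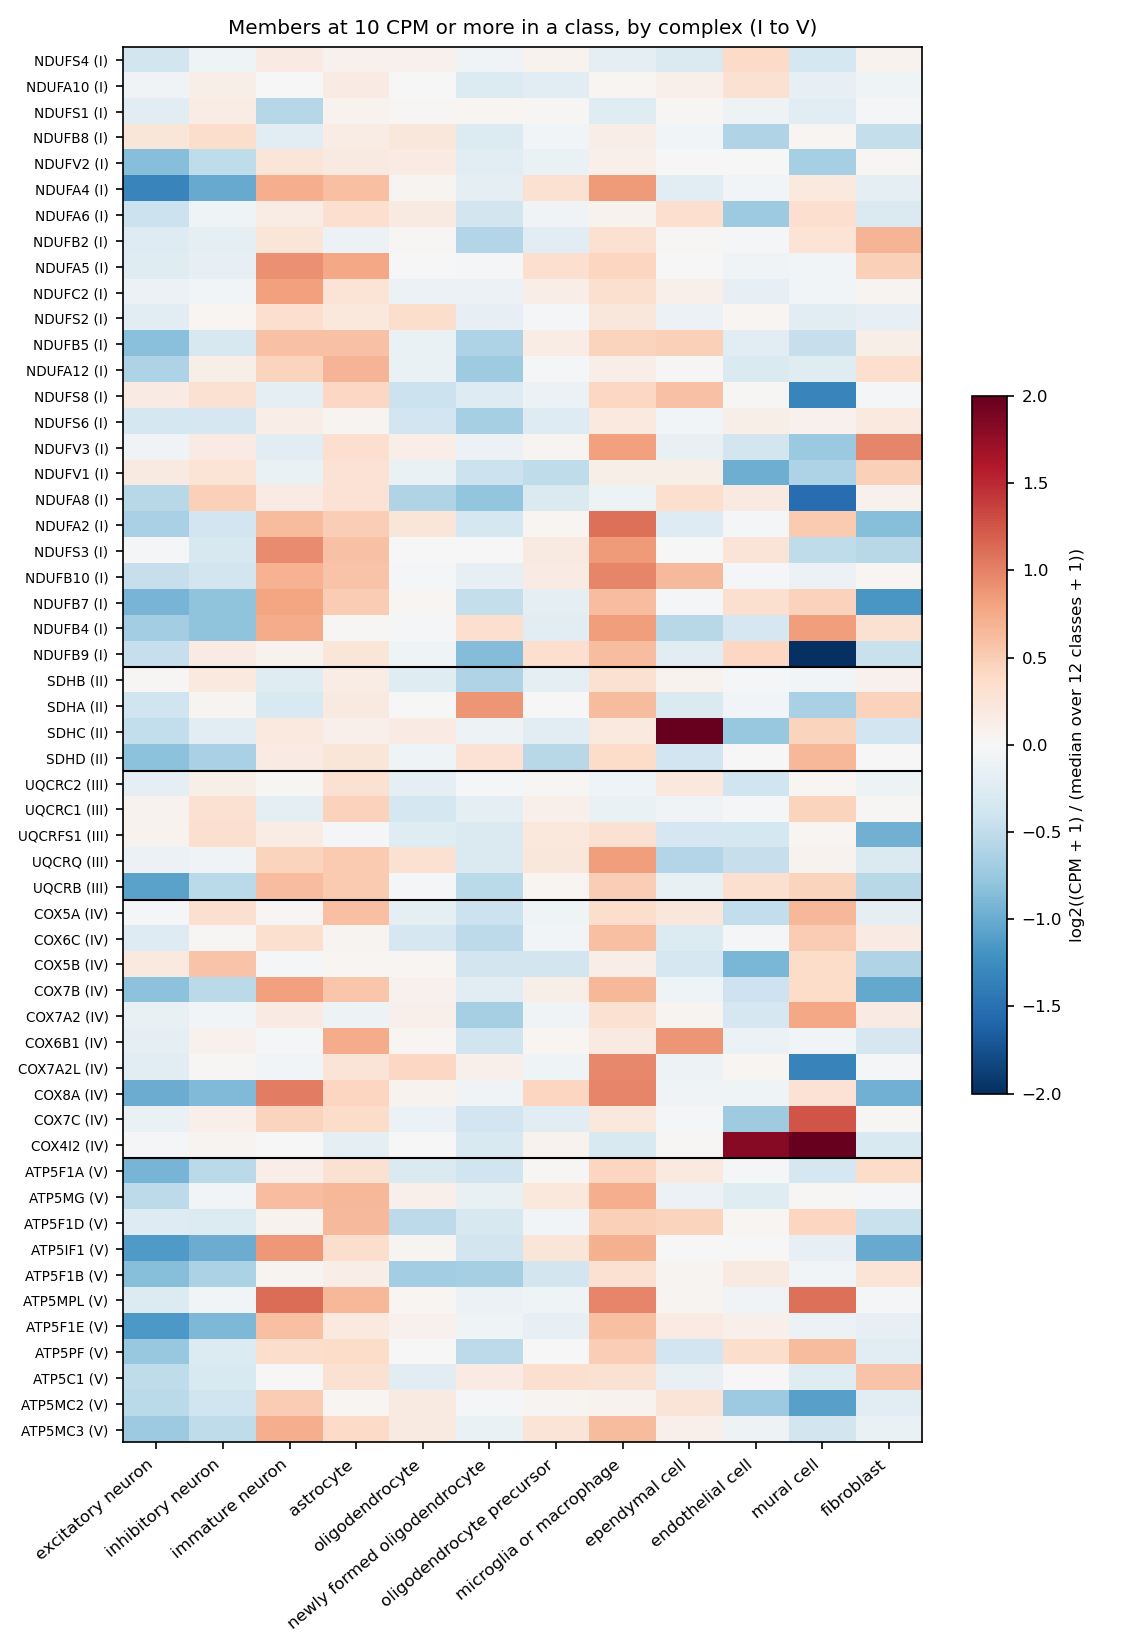
The 54 genes at 10 CPM or more in at least 1 class (rows, grouped by complex I to V) over 12 classes of nuclei (columns). Colour is log2 of (CPM + 1) over the median of the 12 classes, limited to -2 and 2. Most cells are pale. SDHC in ependymal cells (187 CPM), COX4I2 in mural cells (17.7 CPM on 5 UMIs) and the pale blue of NDUFA4, COX8A and ATP5IF1 in excitatory and inhibitory neurons stand out. COX4I2 passed the filter of 10 CPM through mural cells alone, so its high value there was fixed by the filter.

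Several subunits of complex IV have isoforms restricted to a tissue. COX4I2 encodes an isoform of subunit 4 that is known from lung and from low oxygen, and COX4I1 encodes the widespread form. COX4I2 had 5 UMIs in 5 of 169 mural nuclei, which is 17.7 CPM (5.76 to 41.4), and 5 UMIs in 459 endothelial nuclei, 3.35 CPM (1.09 to 7.82). The 25852 neurons held 45 UMIs, 0.22 CPM. The ratio was 5.29 (1.22 to 23.0) for mural against endothelial cells and 78.9 (24.4 to 198) for mural cells against neurons. COX4I1 had no UMI in mural cells, which allows up to 10.6 CPM (3 counts of the class total), and 3.35 CPM in endothelial cells, against 4.13 CPM over all nuclei. COX7A1, the isoform of heart and skeletal muscle, had 2 UMIs in mural cells (7.09 CPM), while COX7A2 had 6 UMIs there (21.3 CPM). No library held 50 mural nuclei, so these levels have no check by library. COX6A2 and COX6B2, isoforms of muscle and testis, had no UMI in any class.

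The first comparison, of neurons with non-neuronal nuclei, asked whether the chain as a whole was more abundant in the RNA of neurons. A gene had to reach 10 CPM in one of the classes to be measured, and it was called if it differed at least 2-fold with the same direction in every library that had 50 nuclei of both. Of 50 members measured, none was called higher in neurons and 2 were called lower, NDUFA4 and ATP5IF1. Over all 10411 genes measured, 11.4% were called higher and 18.8% lower. The summed members stood at 1270 CPM in neurons and 1658 CPM in non-neuronal nuclei, and the log2 ratio ran from -0.42 to -0.09 over the 8 libraries. The median log2 ratio was -0.46 for the members, -0.23 for all genes measured and -0.80 for ribosomal protein genes. The pooled value for the members lay below the medians of all 8 single libraries, which ran from -0.46 to -0.01, and was -0.24 with libraries weighted equally and with TMM factors. Per nucleus the sum was 9.84 UMIs for neurons and 4.59 UMIs for non-neuronal nuclei.

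NDUFA4 had 12.3, 25.1 and 45.3 CPM in neurons as the lowest, median and highest library, against 18.6, 45.5 and 103 CPM in non-neuronal nuclei. It was lower in neurons in all 8 libraries, but the ranges of the 2 classes overlap because the libraries themselves differ. Pooled, it stood at 26.9 CPM in neurons and 74.9 CPM in non-neuronal nuclei, 2.78-fold lower (2.67 to 2.90), while within libraries the log2 ratio lay between -1.20 and -0.42. ATP5IF1, the inhibitor that stops the ATP synthase from running in reverse, had 8.80, 13.7 and 24.7 CPM in neurons, against 10.6, 24.3 and 48.9 CPM in non-neuronal nuclei. Its pooled levels were 15.3 CPM in neurons and 36.3 CPM in non-neuronal nuclei, 2.37-fold lower (2.24 to 2.51), with library log2 ratios of -1.01 to -0.26. For both genes the pooled ratio was larger than in any single library, and with libraries weighted equally both fell short of 2-fold, at log2 ratios of -0.94 for NDUFA4 and -0.83 for ATP5IF1.

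Without the fold threshold, 10 members were lower in neurons in all 8 libraries, against 41.2% of all genes measured. These included SDHC at 25.02 CPM in neurons and 45.0 CPM in non-neuronal nuclei, and SDHA and NDUFS1. NDUFB8, UQCRFS1 and COX5B were higher in neurons in all 8 libraries, with log2 ratios of 0.19, 0.21 and 0.41, 3 of 50 where 20.5% of all genes measured were. COX5B, a subunit of complex IV, had 16.6 CPM in neurons and 12.5 CPM in non-neuronal nuclei. By complex, the median log2 ratio was lowest for complex V, at -0.68 over 11 genes, and closest to 0 for complex III, at -0.12 over 5.

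Depth moved with this comparison. The mean UMI count was 7748 in neurons and 2768 in non-neuronal nuclei, and in both the pooled summed CPM was lower in deeper nuclei. For neurons it was 1968 CPM at 1000 to 2000 UMIs, 1457 at 2000 to 4000, 1315 at 4000 to 8000, 1227 at 8000 to 16000 and 1196 above. For non-neuronal nuclei the same ranges up to 16000 UMIs gave 1920, 1690, 1442 and 1321 CPM. Within single libraries the decline did not hold at every step. From 2000 to 4000 up to 4000 to 8000 UMIs the sum in neurons was lower in 5 of 8 libraries and higher in libraries 5, 7 and 8, with deep-over-shallow ratios of 0.833 to 1.02. From 1000 to 2000 up to 2000 to 4000 UMIs the sum in non-neuronal nuclei was lower in 6 of 8 libraries and higher in libraries 6 and 8, with deep-over-shallow ratios of 0.834 to 1.05. Within ranges of UMIs the classes lay closer together, although the ranges do not equalise depth: at 4000 to 8000 UMIs the mean was still 6024 in neurons and 5021 in non-neuronal nuclei. At 1000 to 2000 UMIs neurons were above non-neuronal nuclei in 3 of 6 libraries and below in 3, with ratios of 0.965 to 1.04. At 2000 to 4000 UMIs they were below in 8 of 8, with ratios of 0.917 to 0.980, and at 4000 to 8000 UMIs above in 2 and below in 2, with 0.892 to 1.04. In the deepest range with both classes, 8000 to 16000 UMIs, neurons were above in the 2 libraries that had enough nuclei.

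Neither NDUFA4 nor ATP5IF1 was called within a depth range, but for both the ratio pooled over libraries was lower in the deeper ranges. The log2 ratio of NDUFA4 was -0.07 at 1000 to 2000 UMIs, -0.70 at 2000 to 4000 and -0.84 at 4000 to 8000. For ATP5IF1 the values were 0.37, -0.56 and -0.70. Of the 1435 neurons in the shallowest of these ranges, 1135 were immature neurons. TTR stood in that range at 77.3 CPM in neurons and 31.5 CPM in non-neuronal nuclei, and at 4000 to 8000 UMIs at 4.73 and 15.7 CPM in the same order. These ratios and TTR values are pooled, and the mix of libraries changed with depth. At 1000 to 2000 UMIs libraries 1 to 4 held 1246 of the 1435 neurons. At 4000 to 8000 UMIs they held 768 to 1308 neurons each, against 1358 to 1658 in each of libraries 5 to 8. Non-neuronal nuclei in that range reached 50 only in libraries 1 to 4. The parts of free RNA and of library makeup in these ratios were not tested.

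**Figure D3:**
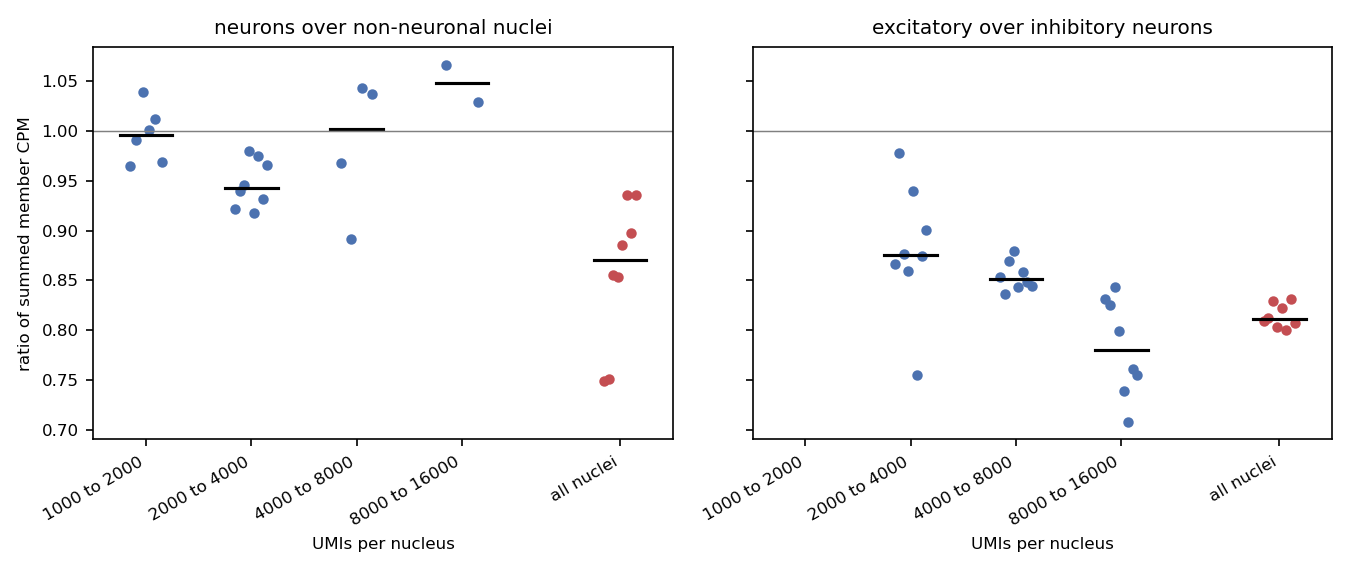
Ratio of summed member CPM between classes within ranges of UMIs per nucleus (blue) and over all nuclei (red), for neurons over non-neuronal nuclei (left) and excitatory over inhibitory neurons (right). Each point is a library with at least 50 nuclei of both classes in the range, and bars are medians. On the left the points lie on both sides of 1 in the ranges 1000 to 2000 and 4000 to 8000 and below 1 in the range 2000 to 4000, while on the right every point is below 1.

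Within neurons the members did not grow in step with the total. Between nuclei of 1000 to 2000 UMIs and those of 8000 to 16000, mean UMIs per nucleus grew 6.90-fold, the members together 4.302-fold and ribosomal protein genes 3.62-fold. UQCRC2 grew 6.36-fold and NDUFS4 5.17-fold, but NDUFA4 1.47-fold. In CPM, the deep neurons held a median of 0.596 times the level of the shallow ones over 50 members, against 0.834 over all genes. Below 1 were 44 of 50 members and 65.1% of all genes. These pooled ratios also mix libraries, since libraries 1 to 4 held 1246 of the 1435 shallow neurons and 4254 of the 9549 deep ones. Within libraries the ratio of the sum was 0.610, 0.620, 0.683 and 0.725 in libraries 1 to 4 and 0.821 and 0.864 in libraries 5 and 7, the others with 50 shallow neurons. Pooled by gene, COX8A (0.202), ATP5IF1 (0.205) and NDUFA4 (0.212) had the smallest ratios, and NDUFB8 (1.22), UQCRC1 (1.16) and COX5B (1.14) the largest. With immature neurons left out, 300 shallow nuclei remained and the median was 0.749. Pooled classes differed too: members grew 6.01-fold for a 6.21-fold total in inhibitory neurons and 4.64-fold for a 6.47-fold total in excitatory neurons. The shallow ends were 178 inhibitory and 122 excitatory nuclei. Inhibitory neurons did not move alike in all libraries from 2000 to 4000 up to 8000 to 16000 UMIs. Their sum went from 1778 to 1522 CPM in library 1 and also fell in libraries 2, 3 and 4. It went from 1220 to 1512 CPM in library 5 and also rose in libraries 6, 7 and 8.

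**Figure D4:**
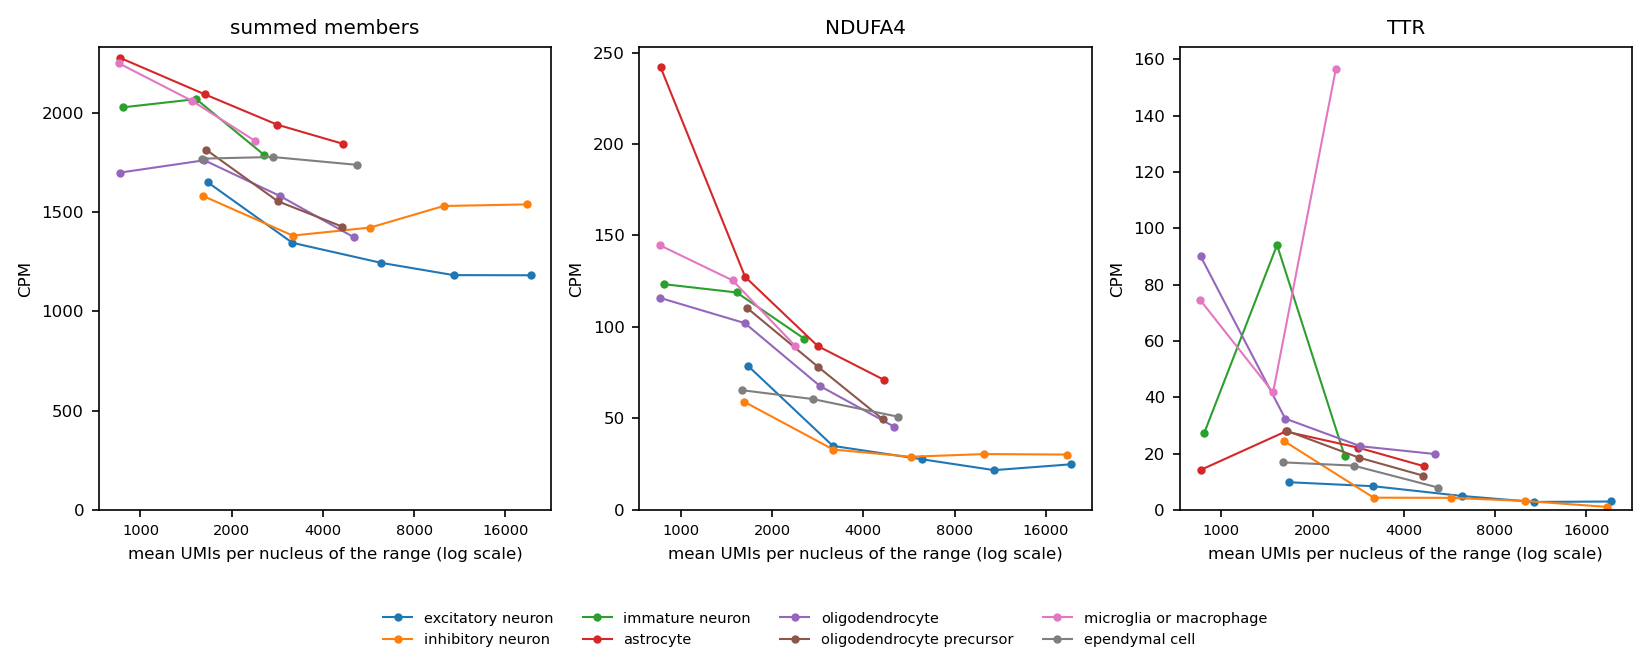
CPM of the summed members (left), NDUFA4 (middle) and TTR (right) in 8 classes against the mean UMIs per nucleus of each depth range (log scale), one line per class. In these values, pooled over libraries, the summed members and NDUFA4 decline with depth in most classes. Inhibitory neurons are an exception for the sum above 4000 UMIs, where libraries do not all move the same way. TTR is uneven.

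The share of nuclei with a UMI shows how far depth can set such a measure. NDUFA4 was detected in 17.6% of neurons and 17.8% of non-neuronal nuclei as deposited, and after thinning every nucleus to 1000 UMIs in 3.19% of neurons and 7.86% of non-neuronal nuclei. NDUFS4 was detected in 42.3% of neurons and 22.5% of non-neuronal nuclei before thinning, and in 7.99% and 9.80% in the same order after it, so its direction turned. Thinning left out 105 neurons and 661 non-neuronal nuclei with fewer UMIs. It evens depth but not library makeup, so the thinned shares still mix libraries. Libraries 1 to 4 each held 3421 to 5847 non-neuronal nuclei, against 441 to 531 in each of libraries 5 to 8. Neurons numbered 2505 to 3762 and 3144 to 3498 per library in the same order. TTR, the tracer used for free RNA, was found in 0.567% of thinned neurons and 2.18% of thinned non-neuronal nuclei. It did not behave alike in all classes. From 1000 to 2000 up to 2000 to 4000 UMIs it rose from 41.7 to 157 CPM in microglia or macrophages. In immature neurons it fell from 94.0 to 19.0 CPM between the same ranges.

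Excitatory neurons had lower levels than inhibitory neurons across nearly all members, by a small amount. Of 45 members measured none was called higher and only NDUFA8 was called lower in excitatory neurons, against 6.05% higher and 6.42% lower over all genes. In 28 of the 45 the level was lower in excitatory neurons in all 8 libraries, where 35.7% of all genes measured were. The median log2 ratio was -0.26 for the members, -0.10 for all genes and -0.08 for ribosomal protein genes. Below 0 were 43 of 45 members and 61.5% of all genes. Summed, excitatory neurons held 1202 CPM and inhibitory neurons 1456 CPM, a ratio of 0.826, and the log2 ratio lay between -0.32 and -0.27 in the 8 libraries. The complexes moved alike, with median log2 ratios between -0.30 for complex IV and -0.24 for complex V.

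This difference recurred within ranges of UMIs in the sum, although depth was not equal: at 4000 to 8000 UMIs the mean was 6236 in the excitatory class and 5730 in the inhibitory class. Excitatory neurons were lower in 8 of 8 libraries at 2000 to 4000 UMIs (ratios 0.755 to 0.978), at 4000 to 8000 UMIs (0.836 to 0.880) and at 8000 to 16000 UMIs (0.708 to 0.844). The median over members did not follow at 2000 to 4000 UMIs, where it was 0.03, and was -0.16 at 4000 to 8000 UMIs. Neither class held enough nuclei below 2000 UMIs.

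NDUFA8, an accessory subunit of complex I held in the space between the mitochondrial membranes, had 12.03, 14.96 and 18.4 CPM in excitatory neurons (lowest, median and highest library), against 24.0, 32.5 and 40.2 CPM in inhibitory neurons. The 2 ranges did not overlap. Pooled, the levels were 14.97 CPM in excitatory neurons and 31.5 CPM in inhibitory neurons, 2.10-fold lower (1.97 to 2.25), with library log2 ratios of -1.31 to -0.81. At 2000 to 4000 UMIs it was not called, with 19.5 CPM in excitatory neurons and 22.4 CPM in inhibitory neurons. With TMM factors it was not called either.

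Among inhibitory neurons the higher level lay on the LHX6 side. Inhibitory neurons divide by origin into those of the medial ganglionic eminence, which express LHX6, and those of the caudal eminence, marked among others by ADARB2. NDUFA8 had 29.9, 43.2 and 55.1 CPM in LHX6-side neurons, against 11.1, 14.8 and 23.6 CPM in ADARB2-side neurons. These ranges did not overlap either. Pooled, the levels were 43.1 CPM on the LHX6 side and 16.1 CPM on the ADARB2 side, a ratio of 2.67 (2.22 to 3.24), and the log2 ratio was between 0.88 and 2.09 in the libraries. After thinning, 3.90% of LHX6-side nuclei and 2.15% of ADARB2-side nuclei had an NDUFA8 UMI, against 24.2% and 7.11% as deposited. The level of ADARB2-side neurons was close to the 14.97 CPM of excitatory neurons.

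In the gene order of the RefSeq annotation of the macaque assembly T2T-MMU8v2.0, NDUFA8 stands between TTLL11 and MORN5, overlaps MORN5, and has LHX6 as the next gene beyond it. MORN5 stood at 87.2 CPM in LHX6-side neurons and 0.86 CPM in ADARB2-side neurons, and LHX6 at 124 and 1.35 CPM in the same order. TTLL11, on the other side, had 350 CPM in LHX6-side neurons and 252 CPM in ADARB2-side neurons and was not called. In the 4 inhibitory clusters with LHX6 above 20 CPM, NDUFA8 lay between 36.4 and 47.7 CPM and MORN5 between 79.5 and 118 CPM. In the other 3, NDUFA8 lay between 16.1 and 22.2 CPM and MORN5 did not exceed 0.86 CPM. Ependymal cells had 44.4 CPM of MORN5 and 28.1 CPM of NDUFA8, and astrocytes had 27.6 CPM of NDUFA8. Which annotation the counts were made with is not stated in any source used, and reads of NDUFA8 and MORN5 cannot be told apart with certainty.

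**Figure D5:**
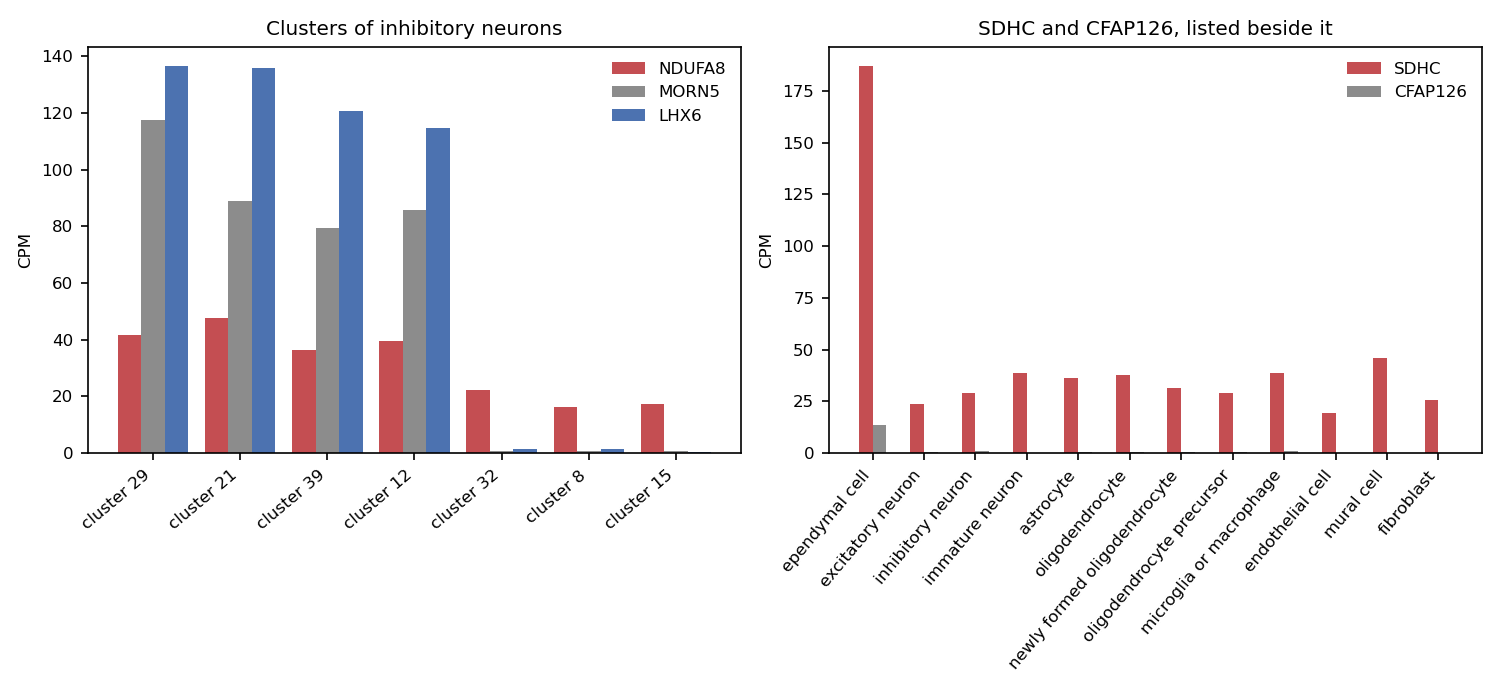
CPM of NDUFA8 with MORN5 and LHX6 in the 7 clusters of inhibitory neurons (left), and of SDHC with CFAP126 in 12 classes (right). The 4 clusters with LHX6 hold 36.4 to 47.7 CPM of NDUFA8 and the other 3 hold 16.1 to 22.2 CPM. SDHC stands at 187 CPM in ependymal cells, where CFAP126 has 13.5 CPM.

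Apart from NDUFA8, no member was called between the LHX6 and ADARB2 sides, in 45 measured, where 4.23% of all genes were called higher and 5% lower. The members leaned upward on the LHX6 side, with 37 of 45 above 0, while 51.3% of all genes were below 0. The median log2 ratio was 0.18, against -0.01 for all genes. The sum was 1561 CPM on the LHX6 side and 1343 CPM on the ADARB2 side. Higher on the LHX6 side in all 8 libraries were NDUFA8, UQCRFS1, NDUFA12 and ATP5F1B, 4 of 45 where 13.9% of all genes were. UQCRFS1, the Rieske iron-sulfur protein of complex III, had 42.5 CPM on the LHX6 side and 21.9 CPM on the ADARB2 side, a ratio of 1.94 (1.64 to 2.29). COX5B had 24.8 CPM on the LHX6 side and 13.3 CPM on the ADARB2 side, higher in 7 of 8 libraries.

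Immature neurons were compared with dentate granule neurons, the mature type that forms from immature neurons in the dentate gyrus. Whether the immature class here belongs to that lineage was not tested. Both classes were present with 50 nuclei in libraries 1 to 4 alone. Of 51 members measured, 7 were called higher in immature neurons and none lower, against 17.1% higher and 8.15% lower over all genes, a share of members close to that of genes at large. In 28 of 51 the level was higher in all 4 libraries, where 48.4% of all genes were. The sum was 1899 CPM in immature neurons and 1341 CPM in granule neurons, with library log2 ratios of 0.39 to 0.57. The median log2 ratio was 0.51 for members, 0.30 for all genes and 0.79 for ribosomal protein genes, of which 19 of 50 were called higher.

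Of the 7, 3 carry complex I symbols (NDUFA4, NDUFB7 and NDUFC2), 2 encode subunits of complex IV (COX7B and COX8A) and 2 belong to complex V (ATP5F1E and ATP5IF1). COX8A, the smallest nuclear subunit of complex IV, had 30.3, 34.0, 29.4 and 21.4 CPM in immature neurons of libraries 1 to 4, against 12.1, 8.61, 8.11 and 6.24 CPM in granule neurons. Its ranges did not overlap, and the pooled ratio was 3.19. ATP5IF1 stood at 59.1 CPM in immature neurons and 21.1 CPM in granule neurons, a ratio of 2.80. NDUFA4 had 110, 116, 68.5 and 91.3 CPM in immature neurons, against 38.7, 41.6, 44.0 and 39.9 CPM in granule neurons, again without overlap, and a pooled ratio of 2.54.

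COX7B of complex IV had 39.4 CPM in immature neurons and 15.3 CPM in granule neurons, and ATP5F1E, the epsilon subunit of the ATP synthase, 41.1 and 16.8 CPM in the same order. NDUFC2 of complex I stood on the threshold, with 53.0 CPM in immature neurons and 26.5 CPM in granule neurons, and was no longer called with libraries weighted equally or with doublets kept. With TMM factors NDUFC2, ATP5F1E and NDUFB7 all fell short of 2-fold, and 4 of the 7 calls were left. NDUFB7 had 22.6 CPM in immature neurons and 7.77 CPM in granule neurons, but in library 3 the levels were 7.83 and 6.402 CPM. NDUFB8 went the other way in 4 of 4 libraries, at 41.6 CPM in immature neurons and 66.0 CPM in granule neurons. Immature nuclei had a mean of 1966 UMIs and granule nuclei 7353. Among nuclei of 2000 to 4000 UMIs none of the 7 was called, NDUFA4 stood at 93.6 CPM in immature neurons and 52.6 CPM in granule neurons, and the median over members was 0.39. Those values rest on 2 libraries and 270 granule nuclei.

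No member was called between oligodendrocytes and their precursors. Of all genes measured, 8% were called higher in oligodendrocytes and 12.8% lower, and 49 members were measured. The median log2 ratio was -0.05 for members and -0.08 for all genes, but at the finer Leiden resolution of 2.0 the member median was positive. The sum was 1526 CPM in oligodendrocytes and 1565 CPM in precursors, with library log2 ratios from -0.38 to 0.08, a spread that includes 0. UQCRC2 and NDUFB5 were lower in oligodendrocytes in 8 of 8 libraries, 2 of 49 where 19.1% of all genes measured were. UQCRC2 had 93.2 CPM in oligodendrocytes and 108 CPM in precursors.

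Ependymal cells, the ciliated cells that line the ventricles, were compared with astrocytes. The direction was checked in libraries 1 to 4, the only ones with 50 nuclei of both, but pooled values used all 8 libraries. Libraries 5 to 8 each gave 92 to 110 ependymal nuclei and 1 to 5 astrocytes, so the pooled ratios mix libraries. Of 51 members measured, SDHC was called higher and UQCRQ lower, against 14.9% higher and 11.1% lower over all genes. SDHC had 177, 161, 180 and 177 CPM in ependymal cells, against 38.4, 34.9, 37.8 and 33.9 CPM in astrocytes. The ranges lie far apart. Pooled over all libraries, 187 CPM in ependymal cells and 36.2 CPM in astrocytes give a ratio of 5.16 (4.57 to 5.83). In libraries 5 to 8 ependymal cells had 260, 191, 235 and 213 CPM. Named astrocytes were too few there, and the unnamed astrocyte-scoring cluster, nearly all of it from those libraries, had 27.5 CPM. After thinning, 18.8% of ependymal nuclei and 3.18% of astrocytes had an SDHC UMI, against 41.6% and 8.76% as deposited.

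CFAP126, a gene of motile cilia, stands beside SDHC in the same RefSeq gene order. It had 13.5 CPM in ependymal cells and 0.43 CPM in astrocytes and was called higher in ependymal cells. Whether its reads were counted to SDHC was not tested.

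UQCRQ, a small subunit of complex III, had 17.7, 17.6, 10.1 and 12.4 CPM in ependymal cells of libraries 1 to 4, against 27.2, 24.4, 22.2 and 25.4 CPM in astrocytes, without overlap. Pooled over all libraries it was 10.98 CPM in ependymal cells and 24.9 CPM in astrocytes, 2.27-fold lower (1.64 to 3.20). The call was lost in 6 of 21 alternatives: with libraries weighted equally, at 2000 to 4000 and at 4000 to 8000 UMIs, at the finer Leiden resolution of 2.0, with doublets kept, and with the unnamed astrocyte-scoring cluster added. Pooled over all libraries the members leaned lower, with a median log2 ratio of -0.33, the same as for ribosomal protein genes, against -0.06 for all genes. The member medians within libraries 1 to 4 were all closer to that of all genes, at -0.245, -0.325, -0.162 and -0.178. The pooled sum was 1743 CPM in ependymal cells of all libraries and 1953 CPM in astrocytes. Within libraries 1 to 4 the log2 ratio of the sum lay between -0.17 and -0.04.

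Assembly factors, citric acid cycle enzymes, carriers and regulators of mitochondrial biogenesis were read beside the members, with 79 to 83 genes measured per comparison. Between neurons and non-neuronal nuclei 1 was called higher and 7 lower, against the 11.4% and 18.8% of all genes given above. The gene called higher was PPARGC1B, a coactivator of mitochondrial biogenesis, at 87.1 CPM in neurons and 17.6 CPM in non-neuronal nuclei. Those called lower in neurons included SUCLG2, the GDP-forming subunit of succinyl-CoA ligase, at 13.4 CPM in neurons and 111 CPM in non-neuronal nuclei, SLC25A13, the aspartate-glutamate carrier, at 50.1 and 233 CPM in the same order, and PC, pyruvate carboxylase, at 32.2 and 78.5 CPM. COX19 and COX20, assembly factors of complex IV, were also lower in neurons, at 18.9 against 39.7 CPM and 13.2 against 28.4 CPM, as were PPARA at 10.51 against 62.4 CPM and HIF1A at 45.9 against 94.2 CPM. All these levels are pooled over libraries. The ratios of COX20, COX19 and HIF1A lay near the threshold, at 0.465, 0.475 and 0.487. Calls on listed genes, here and in the other comparisons, were not checked under the alternatives run for the members.

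In the remaining comparisons the lists gave few calls. Excitatory neurons differed from inhibitory neurons in PPARA alone, with 6.06 CPM in excitatory and 25.1 CPM in inhibitory neurons. PPARGC1A, the coactivator that drives much of the nuclear respiratory program, had 99.5 CPM in LHX6-side neurons and 40.9 CPM in ADARB2-side neurons and was the only listed gene called there. In immature neurons 9 of 83 were called higher and 2 lower than in granule neurons, against 17.1% and 8.15% of all genes. The higher ones included CMC1 (45.5 CPM in immature neurons and 10.8 in granule neurons), COX17 (10.2 and 3.61), TMEM70, an assembly factor of the ATP synthase (26.0 and 9.76), and CYCS, cytochrome c (29.0 and 9.14). The lower ones were POLG, the polymerase of mitochondrial DNA, at 15.1 CPM in immature neurons and 43.2 CPM in granule neurons, and PPARGC1B at 18.7 and 50.8 CPM.

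Oligodendrocytes were called higher than precursors in 3 of 80 listed genes and lower in 4, against 8% and 12.8% of all genes. SLC25A13 had 417 CPM in oligodendrocytes and 151 CPM in precursors, MPC1, a subunit of the pyruvate carrier, 110 and 51.2 CPM, and COX19 72.5 and 21.5 CPM. All 4 lower genes were regulators, among them PPARGC1A at 7.66 CPM in oligodendrocytes and 44.0 CPM in precursors and PPARGC1B at 5.42 and 30.9 CPM, while the summed members of the chain in these classes were 1526 and 1565 CPM. In ependymal cells 3 of 83 were called higher and 4 lower than in astrocytes, against 14.9% and 11.1% of all genes. HIGD1A, a small protein of the inner membrane induced by low oxygen, had 327 CPM in ependymal cells and 39.7 CPM in astrocytes, a ratio of 8.24. HIF1A had 33.7 CPM in ependymal cells and 159 CPM in astrocytes, and CYCS 8.93 and 23.5 CPM.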

How the data were processed

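Per the file headers the matrix was written by Cell Ranger software version 3.1.0, and CASAVA 1.8, Cell Ranger and Seurat are listed in the submitters' processing notes. The deposited values are raw, unscaled UMI counts; the genome build is not given in the sources used here. Nuclei with 500 UMIs and 300 genes were kept (58220), and 3576 doublets were removed by simulated neighbours, 4.18% to 7.75% per library. The 2000 most variable genes, without 257 listed genes (the members among them), gave 30 principal components and, with Leiden resolution 1.0 and seed 1, 46 clusters. Clusters were named from 177 markers of 21 types (169 in the matrix); 9 clusters with 8402 nuclei stayed unnamed.

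Raw counts were summed per class and scaled to CPM. Intervals are exact at 95% (Poisson, conditional binomial for ratios, Clopper-Pearson) and cover counting error only; a count of 0 allows 3 counts. Members named are those called in a comparison, tissue-restricted isoforms, the 2 highest and the lowest measured of each complex, and the 3 at each end of the ratio between depth ranges; of each pathway list, up to 2 called genes per direction. Other members named (such as NDUFS1, NDUFB8, UQCRFS1, NDUFA12, ATP5F1B and NDUFB5) were picked after their values were seen. The members and lists were chosen with earlier results of these data known. Calls were checked on simulated counts. Python 3.11.15, scipy 1.17.1, scikit-learn 1.9.0 and leidenalg 0.10.2 were used.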

Additional observations from a re-analysis of the deposited data

Results flagged for a closer look

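The highest summed level lay in nuclei that no comparison uses. An unnamed cluster of 420 nuclei, with a median of 1098 UMIs and TTR as its leading gene, held 4197 CPM of the 67 genes (4030 to 4368), against 1350 CPM over all nuclei kept. The cluster was picked for its summed level, the highest among unnamed clusters with a median under 1200 UMIs. That level and the ratios to neurons below are therefore not independent of the choice. The cluster had 141, 98, 94 and 76 nuclei in libraries 1 to 4 and 5, 3, 3 and 0 in libraries 5 to 8, and its 4 larger libraries gave 3912 to 4388 CPM. NDUFA4 stood at 798 CPM, NDUFC2 at 274, NDUFB5 at 214, ATP5IF1 at 213 and COX8A at 139, beside 2794 CPM of TTR and 556 CPM of NRGN. Relative to neurons the median ratio was 3.21 over 50 members and 0.795 over all genes measured, but members spread from 0.318 to 29.6, with 39 above 1 and 30 above 2. Ribosomal protein genes summed to 3330 CPM there. The part of free RNA and of damaged nuclei in these values was not tested.

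The log2 ratios by library of the called members and of the sums were also searched for a library far from the others, and 0 of 19 values had one. The largest gap, 0.775 of the range, was that of NDUFB7 in immature against granule neurons, on 4 libraries. The rule looks for a single library apart from the rest, so it cannot flag libraries that split into groups.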

How the results depend on the processing

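SDHC in ependymal cells and NDUFA8 on the LHX6 side kept their calls under every alternative that could be run. For neurons against non-neuronal nuclei the count of 2 called members was 1 (SDHC in place of NDUFA4 and ATP5IF1) with libraries weighted equally, 0 within each of the 3 depth ranges and 7 at 1.5-fold. The median log2 ratio of -0.46 was -0.24 with TMM factors and with equal weights, 0.052 at 1000 to 2000 UMIs, -0.24 at 2000 to 4000 and -0.18 at 4000 to 8000, and ATP5IF1 stood at 0.37 at 1000 to 2000 UMIs. For excitatory against inhibitory neurons, TMM factors gave 0 called members and a median of -0.16, the ranges 2000 to 4000 and 4000 to 8000 gave medians of 0.031 and -0.16, and 1.5-fold gave 3; at 2000 to 4000 the 1 called member was NDUFS3, higher in excitatory neurons. Between LHX6-side and ADARB2-side neurons the count was 2 after taking off 5% of the profile of all nuclei (UQCRFS1 added) and 3 at 1.5-fold, with a median of 0.30 at 2000 to 4000 UMIs. For immature against granule neurons TMM factors gave a median of 0.16, called NDUFB8 lower and lost NDUFC2, ATP5F1E and NDUFB7, and NDUFC2 was also lost with equal weights and with doublets kept; 2000 to 4000 UMIs gave 3 called members (ATP5MC2, SDHD and COX5B, none of the 7) and a median of 0.39, and 1.5-fold gave 18. For oligodendrocytes against precursors, Leiden resolution 2.0 moved the median to 0.50. For ependymal cells against astrocytes the count was 1, SDHC alone, with equal weights (median -0.20), at resolution 2.0 (median -0.18), with doublets kept, at 2000 to 4000 UMIs, and with the unnamed astrocyte-scoring cluster added after seeing the data (median -0.16); it was 8 at 1000 to 2000 UMIs, 5 at 4000 to 8000 (median -0.16) and 7 at 1.5-fold. Leaving out immature neurons, also added later, put the ratio of deep to shallow neurons at 0.749.

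Leaving out each library in turn gave 2 to 3 called members for neurons, 1 for excitatory neurons, 1 to 2 for LHX6-side neurons (2 without library 7, which adds COX5B), 6 to 10 for immature neurons (10 without library 3; NDUFC2 lost in 3 of 8), 0 for oligodendrocytes and 2 to 5 for ependymal cells (4 without library 3, 5 without library 4). The medians ran from -0.50 to -0.42, -0.28 to -0.25, 0.15 to 0.20, 0.49 to 0.58, -0.08 to 0.02 and -0.36 to -0.28 in the same order, the depth ratio from 0.563 to 0.650 and COX4I2 in mural cells from 15.1 to 20.7 CPM. Over all alternatives 230 summary values were as reported, 37 moved and 2 turned; of single genes 219 kept their call, 30 lost it and 1 turned. The cause of these changes was not tested. Excitatory against inhibitory and LHX6-side against ADARB2-side neurons at 1000 to 2000 UMIs, and immature against granule neurons at 1000 to 2000 and 4000 to 8000, were not run for want of libraries, and promoter motifs were not run. No paired analysis was possible because no library is tied to a replicate number of the labels; the ratios within libraries pair classes by library only.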

Other observations

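Levels differed between libraries in the same class. NDUFA4 in neurons stood at 44.7, 45.3, 36.1, 37.6, 13.05, 12.3, 13.2 and 14.2 CPM in libraries 1 to 8, and in non-neuronal nuclei at 103, 97.0, 67.3, 68.3, 18.6, 19.4, 23.8 and 19.0 CPM. ATP5IF1 in neurons stood at 24.6, 24.7, 17.0, 16.0, 10.49, 9.05, 11.3 and 8.80 CPM. The values of NDUFA4 fall into 2 separate clusters, 36.1 to 45.3 CPM and 12.3 to 14.2 CPM in neurons. No label ties these libraries to a pool, and what separates them was not tested. The median log2 ratio of members between neurons and non-neuronal nuclei was -0.43, -0.46, -0.33, -0.27, -0.18, -0.05, -0.07 and -0.01 in libraries 1 to 8. Another unnamed cluster, of 1110 shallow nuclei, held 1927 CPM of the members and 975 CPM of TTR, and an unnamed cluster of 3231 nuclei that scored highest for astrocytes held 1379 CPM.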
